A study of Drosophila melanogaster with 10 samples.

Results

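The dawn side of the day was compared with the dusk side in RNA labelled as from heads of yw flies, a laboratory strain of Drosophila melanogaster named for mutations in the yellow and white genes. The dawn side was the single array at ZT23 and the 3 arrays at ZT3, the dusk side was the single array at ZT11 and the 3 arrays at ZT15, and together these were 8 of the 10 arrays in the series. Zeitgeber time (ZT) counts hours from lights on, so that ZT23 and ZT3 lie on either side of lights on. The arrays were chosen by their labelled times alone, and the remaining ZT7 and ZT19 arrays entered no comparison. Every array carried total RNA of the same strain on an Affymetrix Drosophila 2.0 array, with no second genotype and no treatment. The sources used here do not give the light schedule, the age and sex of the flies or the number of heads per array. Nor do they say whether replicates came from separate cultures, so that p-values reflect the spread of these arrays alone, which may be technical.

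The fly clock is a loop of transcription factors. CLK and CYC together switch on per, tim, vri, Pdp1 and cwo, the PER and TIM proteins later hold CLK and CYC back, and VRI represses while PDP1 activates the Clk gene itself. In fly heads the transcripts of the CLK and CYC targets are known to run high around dusk and early night, and those of Clk and cry, which encodes a blue-light photoreceptor, around dawn. Because each array measured RNA from many cell types in bulk, fewer cells of a type and less RNA per cell cannot be told apart.

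A level is the natural log of a deposited value. The deposited values are likely log2 values from GCRMA raised to the base e. They were therefore read as log2 units, and a difference of 1 as a doubling. Were they plain intensities, each difference would need multiplying by 1.44 to give log2 units. All differences are dawn minus dusk, ZT3 minus ZT15 or ZT23 minus ZT11.

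The 8 arrays fell into 2 sets of 4 that crossed the times of day. The first set held ZT3 replicates 1 and 2 with ZT15 replicates 2 and 3, and the second held ZT23 and ZT3 replicate 3 with ZT11 and ZT15 replicate 1. Any 2 arrays of a set correlated at 0.975 to 0.988 over 12991 probe sets, and any 2 of different sets at 0.749 to 0.83. The labels do not name these sets, and they were drawn from these same values. Transcripts of the eye were abundant on all arrays, with a median over 8 photoreceptor markers of 12.69 to 13.29 at dawn and 12.31 to 12.65 at dusk. Gene by gene, only 1 of the 8 was higher at dawn, and the median dawn minus dusk difference was -0.14. Markers of the testis and of the male accessory gland, organs that lie in the abdomen, were high in the second set only. The median of 14 testis markers was 11.44 at ZT23 and 12.00 at ZT3 replicate 3, and 11.70 at ZT11 and 11.60 at ZT15 replicate 1. In the first set it was 3.50 and 3.89 at ZT3, against 6.24 and 4.13 at ZT15. Eggshell transcripts, made in the ovary, had their highest median at ZT11, and Cyp4g1, a cytochrome P450 gene of the oenocytes of the body wall, was at 15.02 to 15.47 in the second set and at 4.31 to 6.79 in the first. The second set thus goes against a label of heads alone, and its arrays may hold RNA of other body parts; the part of this in the results was not tested. Each set held 2 arrays of each side, so the set cancels out of the dawn minus dusk difference, and the fits carried a term for it that changes only the error.

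**Figure D1:**
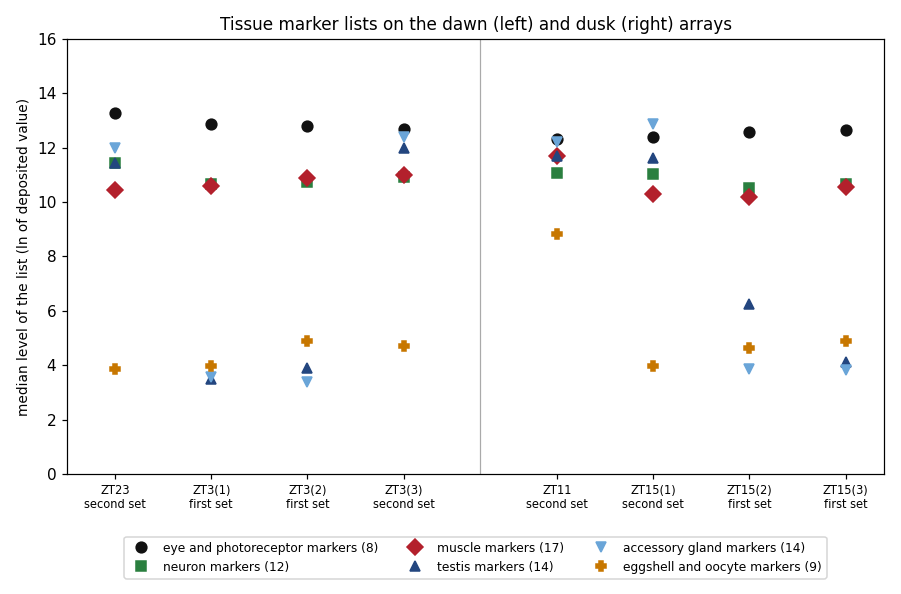
Median level (natural log of the deposited value, y axis) of 6 lists of marker genes on each dawn array (left) and dusk array (right), with the array set named under each array and the number of genes in brackets. Testis and accessory gland markers lie near 12 on the second set and mostly near 4 on the first, and the eggshell median is 8.83 at ZT11, against 3.85 to 4.90 on the other arrays.

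Around dawn, 12 probe sets were higher and 5 were lower than around dusk (limma, Benjamini-Hochberg adjusted p under 0.05), out of 12991 tested. They stand for 11 genes higher and 5 lower at dawn. The background share of calls was thus 0.131% in either direction, 0.0924% higher and 0.0385% lower. Higher at dawn were the clock gene Clk, the detoxification genes Ugt35B1 and GstZ2, the cuticle gene Cpr72Ec and 7 genes with no name beyond their CG number. Lower at dawn were the clock genes vri, per and cwo, the deubiquitinase gene Usp8, and CG14275. Absolute differences ran from 0.75 to 2.82 with a median of 1.94, and adjusted p from 0.00172 to 0.043. Without the term for array set, 1 call was left (vri, adjusted p = 0.0214, limma), and with quantile normalization 7 probe sets were higher and 5 lower. Leaving out 1 array gave 4 calls (without ZT15 replicate 1) to 14 (without ZT23). The calls of vri, Ugt35B1, CG42329 (its first probe set) and Cpr72Ec were kept in all 8 such fits, that of Usp8 in 6, and those of per and CG14275 in 2. The other 10 probe sets kept their call in 1 such fit or in none. An unadjusted p under 0.05 was reached by 1049 probe sets (8.07%). Within each array set, all 17 called probe sets had dawn and dusk arrays that did not overlap, as had 8.73% of all tested probe sets. Over all 8 arrays, 12 of the 17 had no overlap, beside 1.78% of all tested. The 17 were called on these same arrays, so their separation follows largely from the call and adds no support to it. CG16798, 1 of the 17, passed the filter on low values only through its dawn arrays, so its call followed in part from the filter, and 16 remain without it.

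The first array set alone, which leaves out the arrays high in testis and accessory gland transcripts, has 2 arrays a side and gave 0 calls (limma, 1345 at an unadjusted p under 0.05). The differences in it had the signs of the whole comparison for all 17 probe sets. They were 2.47 for Clk, 1.84 for Ugt35B1, 2.40 for CG42329, 2.25 for Cpr72Ec and 1.77 for GstZ2, and -3.03 for vri, -2.99 for per, -0.85 for cwo, -1.75 for Usp8 and -1.40 for CG14275. The 17 were called by a fit that holds these arrays, so the shared signs follow from the call and add no support to it.

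Among the genes that passed, vri moved most. It encodes the bZIP repressor of Clk (CG14029, chromosome arm 2L). Its level was 10.14 at ZT23 and 9.43, 9.23 and 9.35 at ZT3, against 12.30 at ZT11 and 12.43, 12.39 and 12.33 at ZT15. All dawn arrays lay below all dusk arrays, the dusk arrays were nearly equal, and the highest dawn array was ZT23. The means were 9.54 ± 0.41 at dawn and 12.36 ± 0.06 at dusk (SD, n = 4 each). The difference was -2.82 ± 0.19 (SE), which is 7.08-fold lower at dawn, with an adjusted p of 0.00303 (limma). It was -3.03 within the first array set and -2.62 within the second.

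The period gene per (CG2647, X chromosome), which encodes the repressor PER, was at 7.90 at ZT23 and 7.09, 7.04 and 7.05 at ZT3, against 9.31 at ZT11 and 10.21, 10.03 and 10.08 at ZT15. The sides did not overlap, but both single arrays lay toward the other side. ZT23 stood 0.85 above ZT3 replicate 3 of the same array set, and ZT11 minus ZT15 replicate 1 was -0.89. The call was kept without ZT23 or without ZT11, and lost when any 1 ZT3 or ZT15 array was left out (adjusted p up to 0.132). The means were 7.27 ± 0.42 at dawn and 9.91 ± 0.40 at dusk (SD, n = 4 each), a difference of -2.64 ± 0.27 (SE) or 6.24-fold lower at dawn (adjusted p = 0.0244, limma). With the single arrays left out the difference was -3.05 and its adjusted p 0.00252.

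Clk (CG7391, arm 3L), whose protein is the activator of the loop, ran the other way. It was at 9.53 at ZT23 and 9.71, 9.07 and 9.07 at ZT3, against 7.69 at ZT11 and 6.90, 6.80 and 7.05 at ZT15. All dawn arrays were above all dusk arrays, and ZT11 was the highest of the dusk arrays. The difference was 2.24 ± 0.24 (SE), or 4.71-fold higher at dawn (adjusted p = 0.0244, limma). The call was kept in 1 of the 8 fits that left out 1 array, with an adjusted p of 0.0204 to 0.132 over them.

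The gene cwo, or clockwork orange (CG17100, arm 3R), encodes a repressor that acts on the same sites as CLK and CYC. Its level was 10.995 at ZT23 and 10.55, 10.26 and 10.96 at ZT3, against 11.93 at ZT11 and 11.97, 11.27 and 11.24 at ZT15. The sides did not overlap, and the second array set lay above the first on both. The difference was -0.91 ± 0.10 (SE), 1.88-fold lower at dawn (adjusted p = 0.0244, limma). Its second probe set gave -0.77, with an adjusted p of 0.174. The ZT23 minus ZT11 difference of cwo was -0.93 and its ZT3 minus ZT15 difference -0.90.

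The remaining core clock genes did not pass in the fit of 8 arrays by side. The timeless gene tim (CG3234, arm 2L), whose protein pairs with PER, was at 12.03 at ZT23 and 9.95, 9.94 and 9.96 at ZT3, against 13.30 at ZT11 and 13.50, 13.31 and 13.40 at ZT15. The 3 ZT3 arrays were nearly equal and ZT23 stood 2.07 above ZT3 replicate 3, so the SD of the dawn side was 1.04, against 0.09 at dusk. The difference of -2.91 ± 0.43 (SE) was larger in size than that of vri and had an adjusted p of 0.0839 (limma). Without the ZT23 array the adjusted p was 0.000192, with a difference of -3.42. The second tim probe set gave -3.65 ± 0.53 (SE, adjusted p = 0.0822). In a fit of the 8 arrays with each time counted once, the gap between ZT23 and ZT3 did not enter the error. Both tim probe sets passed there, with differences of -2.36 and -3.01.

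For cry (CG3772, arm 3R) the level was 10.50 at ZT23 and 11.21, 11.46 and 10.96 at ZT3, against 10.30 at ZT11 and 9.45, 9.90 and 9.80 at ZT15. ZT23 was the lowest dawn array and ZT11 the highest dusk array, 0.19 apart, and the difference over 8 arrays was 1.17 ± 0.23 (SE, adjusted p = 0.179, limma). Pdp1, the activator of Clk transcription, was at 11.58 at ZT23 and 10.60, 10.09 and 10.79 at ZT3, against 12.07 at ZT11 and 12.06, 11.18 and 11.36 at ZT15. The Pdp1 sides overlapped, since ZT23 was above the ZT15 arrays of the first set, and the difference was -0.91 ± 0.19 (SE, adjusted p = 0.211). The partner of CLK, cyc, was at 8.79 to 9.25 on the dawn arrays and 8.94 to 9.40 on the dusk arrays. Its difference was -0.05 ± 0.11 (SE, adjusted p = 0.948), and its sign turned in 3 alternative fits. Over the core clock list, 1 of the 8 genes passed as higher and 3 as lower at dawn, beside 0.0924% and 0.0385% of all tested probe sets. Passing or not, 2 of the 8 had a difference above 0. The median difference was -0.91, beside -0.01 over all tested probe sets. In 6 of the 8 the sides did not overlap, beside 1.78% of all tested probe sets.

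**Figure D2:**
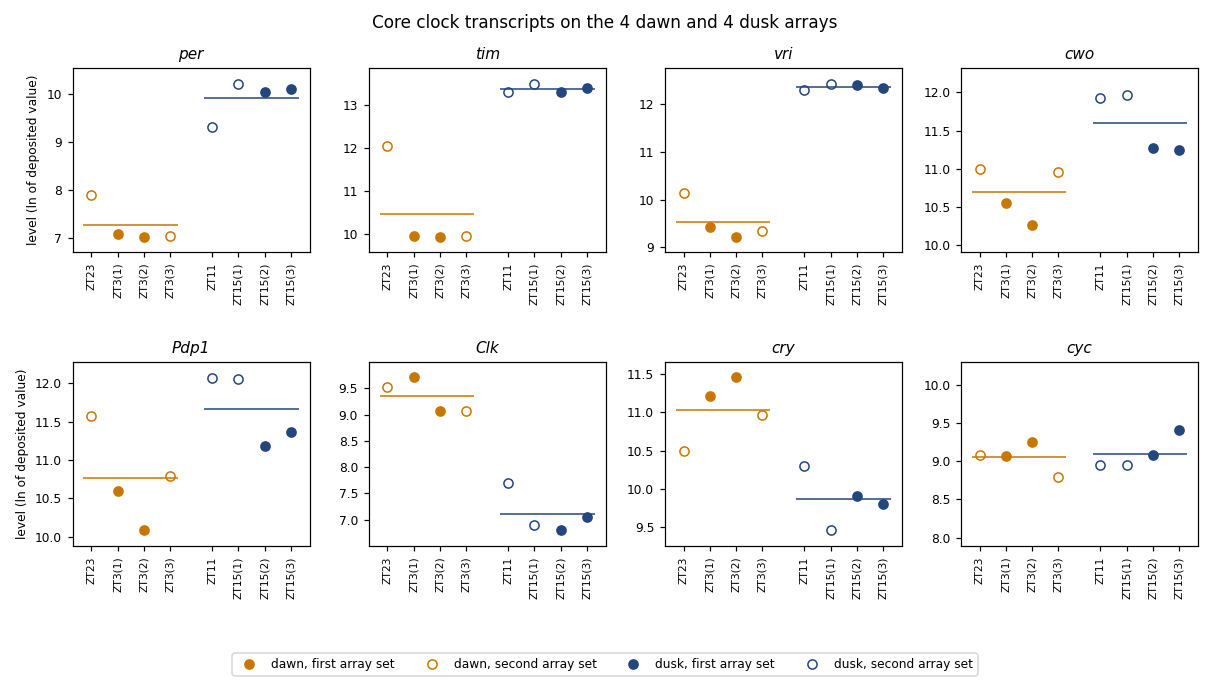
Level (natural log of the deposited value, y axis) of the 8 core clock genes on each dawn array (left, orange) and dusk array (right, blue), with filled points for the first array set and open points for the second; horizontal lines are the means of each side. In per, tim and vri the ZT23 array is the highest of the dawn side, and in cry it is the lowest.

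Among the other genes that rose at dawn, Ugt35B1 (CG6649, arm 3R), a UDP-glycosyltransferase that joins sugars to fat-soluble compounds, shared the lowest adjusted p with CG42329. Its level was 11.55 at ZT23 and 12.46, 12.43 and 11.51 at ZT3, against 9.71 at ZT11 and 9.70, 10.41 and 10.79 at ZT15. The lowest dawn array was above the highest dusk array. The first array set was higher on both sides, but the gap between the sides was 1.84 in the first set and 1.82 in the second. The difference was 1.83 ± 0.10 (SE), or 3.56-fold higher at dawn (adjusted p = 0.00172, limma), and ZT23 minus ZT11 alone gave 1.84.

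CG42329 (arm 2L) had 2 probe sets that both passed. The first was at 8.996 at ZT23 and 9.75, 10.13 and 8.73 at ZT3, against 5.95 at ZT11 and 6.15, 7.41 and 7.68 at ZT15. Dawn and dusk did not overlap, and the difference was 2.60 ± 0.15 (SE), 6.08-fold higher at dawn (adjusted p = 0.00172, limma). The second probe set had a difference of 2.06 ± 0.25 (SE, adjusted p = 0.0383).

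Cpr72Ec (CG4784, arm 3L) belongs to the family of cuticle proteins that bind chitin. It was at 12.80 at ZT23 and 14.19, 14.19 and 13.04 at ZT3, against 11.35 at ZT11 and 11.24, 11.91 and 11.98 at ZT15. The dawn arrays were all above the dusk arrays, with a difference of 1.94 ± 0.15 (SE), or 3.83-fold (adjusted p = 0.00572, limma). It was the 1 call among 42 cuticle genes tested of 104 on the array, beside calls in 0.131% of all tested probe sets. The median difference of the 42 was 0.00.

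CG13305 (arm 3L) showed the largest rise among the called genes. It was at 9.69 at ZT23 and 9.85, 9.74 and 10.50 at ZT3, against 6.75 at ZT11 and 6.84, 7.82 and 7.72 at ZT15. Every dawn array lay above every dusk array, and the 2 array sets differed in size of the gap, which was 2.02 in the first and 3.30 in the second. The difference was 2.66 ± 0.29 (SE), 6.32-fold higher at dawn (adjusted p = 0.0244, limma). GstZ2 (CG9363, arm 3R), a zeta-class glutathione transferase, was at 8.10 at ZT23 and 9.96, 10.22 and 8.42 at ZT3, against 7.08 at ZT11 and 7.12, 8.17 and 8.48 at ZT15. Its sides overlapped over all arrays but not within a set, and the difference was 1.46 ± 0.17 (SE, 2.76-fold, adjusted p = 0.0304).

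The other 5 genes that rose at dawn have no role given here. CG14329 had a difference of 2.03 ± 0.22 (SE), CG16798 of 1.58, CG16959 of 0.93 ± 0.11, CG31205 of 0.89 ± 0.11 and CG7724 of 0.75 ± 0.08, with adjusted p between 0.0244 and 0.043 (limma). CG16798 was at 4.82 to 5.19 at dawn and 3.29 to 3.87 at dusk. Its dusk levels lie below the mean of 4 required of a tested probe set, as do those at ZT7 (3.78) and ZT19 (3.72), so it was tested only because its dawn arrays are high, and its difference and p support nothing by themselves. CG14329, CG16959, CG31205 and CG7724 were separated within each array set but overlapped across the sets.

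Usp8 (CG5798, arm 3R) encodes a ubiquitin-specific protease that has been described as acting on the CLK protein. It was at 8.38 at ZT23 and 9.30, 9.03 and 8.33 at ZT3, against 10.88 at ZT11 and 10.43, 10.82 and 10.999 at ZT15. The sides were separated, and here the single arrays lay far apart, since ZT23 was among the lowest dawn values and ZT11 among the highest dusk values. The means were 8.76 ± 0.48 at dawn and 10.78 ± 0.24 at dusk (SD, n = 4 each), a difference of -2.02 ± 0.16 (SE) or 4.07-fold lower at dawn (adjusted p = 0.00722, limma). CG14275 (arm 2L) was at 10.47 at ZT23 and 10.47, 10.53 and 10.14 at ZT3, against 11.29 at ZT11 and 11.75, 11.82 and 11.98 at ZT15. Its sides did not overlap, ZT11 was the lowest of the dusk arrays, and the difference was -1.31 ± 0.14 (SE, 2.47-fold lower at dawn, adjusted p = 0.0244).

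**Figure D3:**
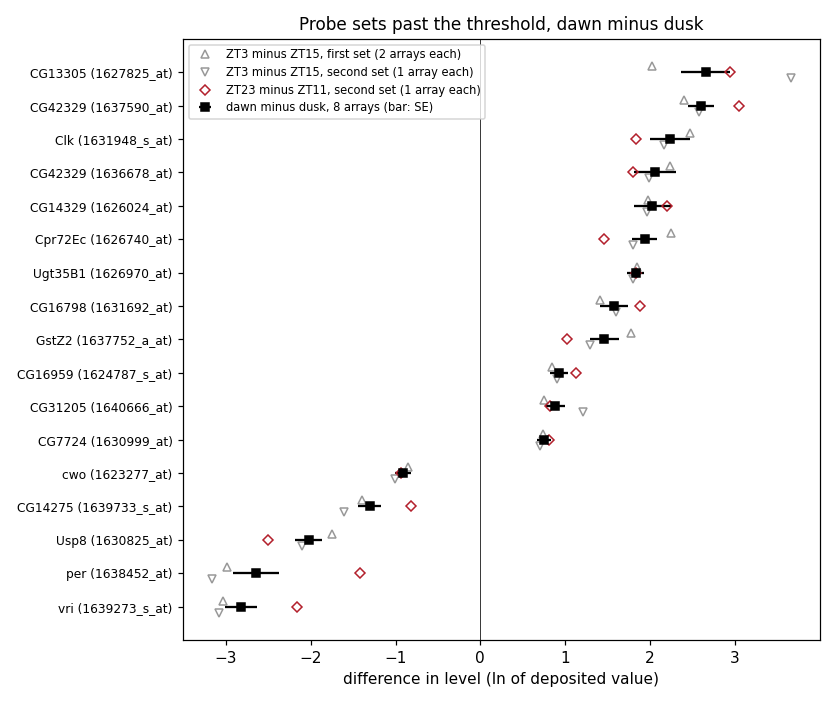
Differences in level (natural log of the deposited value, x axis) for the 17 probe sets past the threshold: dawn minus dusk over 8 arrays (black squares, bars 1 SE), ZT3 minus ZT15 within each array set (grey triangles) and ZT23 minus ZT11 (red diamonds, 1 array each). In all 17 the diamonds lie on the same side of 0 as the squares, which include the ZT23 and ZT11 arrays, so the shared side follows in part from the calls. For per the diamond is at -1.42 and for Usp8 at -2.50.

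The question of what ZT23 and ZT11 add was put by fitting ZT3 against ZT15 alone, over 6 arrays with the same array set term. With 4 arrays a side, the dawn minus dusk difference gives 75% of its weight to ZT3 minus ZT15 and 25% to ZT23 minus ZT11. The median SE over all tested probe sets was 0.142 with 8 arrays and 0.140 with 6. The 6 arrays gave 20 called probe sets of 12991 (0.154%), 7 higher at ZT3 (0.0539%) and 13 lower (0.1%), and 1247 (9.6%) at an unadjusted p under 0.05. Leaving out 1 of the 6 arrays gave 0 to 5 calls, with 0 for ZT3 replicate 3 and for ZT15 replicates 1 and 3, and 5 for ZT3 replicate 2. The 2 fits share those 6 arrays. They had 8 called probe sets in common, which is 47.1% of the 17 and 40.0% of the 20. These were Ugt35B1, CG42329, Cpr72Ec and Clk, all higher at dawn, and vri, per, Usp8 and CG14275, all lower.

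Adding the single arrays brought 9 probe sets past the threshold, 8 of them higher at dawn: CG13305, CG14329, GstZ2, CG16959, CG31205, CG7724, the second CG42329 probe set and CG16798, which was tested only through its high dawn arrays. The ninth was cwo, lower at dawn. None of the 9 passed with each time counted once, a fit that does not pool the single arrays with their sides. With 6 arrays their adjusted p ran from 0.0901 for GstZ2 to 0.143 for CG42329, and their differences had the same signs. The single pair was close in size for most of them. These 9 were chosen by a fit that holds the single pair, so a similar size follows in part from that choice. CG13305 gave 2.94 for ZT23 minus ZT11 and 2.57 for ZT3 minus ZT15, CG7724 gave 0.81 and 0.73, and GstZ2 gave 1.02 and 1.61.

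Adding them took 12 probe sets below the threshold, 3 higher and 9 lower at ZT3. The 3 were cry, the neuronal ankyrin gene Ank2 and CG34134. The 9 were both tim probe sets, Slob, gol, cyr, M7BP, Cyp4d21, CG2681 and CG31710. Some of these losses also depended on pooling the single arrays with their sides. With each time counted once, both tim probe sets and Ank2 passed, while cry, cyr, CG2681 and CG31710 did not. Slob encodes a protein that binds the Slowpoke potassium channel, gol a RING-type ubiquitin ligase, M7BP a protein that binds myosin VIIa, and Cyp4d21 a cytochrome P450.

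Slob was at 11.15 at ZT23 and 10.03, 9.998 and 9.83 at ZT3, against 11.54 at ZT11 and 11.74, 11.59 and 11.68 at ZT15. As in tim, the ZT23 array stood well above the 3 ZT3 arrays and below all dusk arrays. The ZT3 minus ZT15 difference of -1.72 (adjusted p = 0.0228, limma) was accompanied by -0.38 for ZT23 minus ZT11, and over 8 arrays the difference was -1.38 (adjusted p = 0.178). Without the ZT23 array it was -1.69 with an adjusted p of 0.00451. The second Slob probe set did not share this pattern. It gave -0.24 for ZT3 minus ZT15 (adjusted p = 0.846, limma) and -0.93 for ZT23 minus ZT11. For gol the 6 arrays gave -1.81 (adjusted p = 0.0307), the single pair -0.66, and the 8 arrays -1.53 (adjusted p = 0.107). The second gol probe set gave -0.25 with 6 arrays (adjusted p = 0.772, limma) and -0.24 in the single pair.

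In cyr and Cyp4d21 the single pair did not have the sign of the other arrays. cyr was at 5.74 at ZT23 and 4.82, 4.18 and 3.47 at ZT3, against 5.45 at ZT11 and 6.52, 7.82 and 7.82 at ZT15. The ZT23 array was above the ZT11 array by 0.29, while every ZT3 array was below every ZT15 array. Cyp4d21 was at 11.38 at ZT23 and 10.65, 10.62 and 10.24 at ZT3, against 11.08 at ZT11 and 11.99, 11.94 and 11.94 at ZT15. Its ZT23 minus ZT11 difference was 0.30, set against -1.45 for ZT3 minus ZT15 (adjusted p = 0.0496, limma).

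Ank2 stayed close to the threshold with 8 arrays. Its probe set was at 12.32 at ZT23 and 11.42, 11.29 and 11.53 at ZT3, against 9.74 at ZT11 and 10.36, 9.82 and 9.98 at ZT15. The sides did not overlap and the single pair differed by 2.58, against 1.36 for ZT3 minus ZT15, giving 1.67 over 8 arrays (adjusted p = 0.0616, limma). The 4 other Ank2 probe sets gave -0.40 to 1.04 and none passed.

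ZT23 and ZT11 are not used in the 6-array fit, so the sign of ZT23 minus ZT11 could be read for its 20 calls, although the authors processed all arrays together. The sign was the same in 17 of 20 (85.0%), beside 52.0% of all tested probe sets. It was the same in 7 of 7 higher at ZT3 and in 10 of 13 lower, the exceptions being cyr, M7BP and Cyp4d21. In size, the single pair gave a median of 1.01 times the ZT3 minus ZT15 difference in the 7 and 0.37 times in the 13. It was the smaller of the 2 in 11 of the 13 that were lower at ZT3. These 20 probe sets were chosen by their ZT3 minus ZT15 difference, and the part of that choice in these ratios was not tested.

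The difference between the single pair and the other arrays was tested directly, as ZT23 minus ZT11 less ZT3 minus ZT15, with the lone arrays assumed to vary like ZT3 and ZT15. It passed for 3 of 12991 probe sets (0.0231%), 2 positive (0.0154%) and 1 negative (0.0077%), and 1174 (9.04%) had an unadjusted p under 0.05. CG34134 was at 13.41 at ZT23 and 11.06, 10.71 and 10.71 at ZT3, against 7.18 at ZT11 and 9.07, 9.19 and 9.13 at ZT15. The ZT23 array was the highest of the 8, the ZT11 array the lowest, and the 6 others lay between them. ZT23 minus ZT11 was 6.23 and ZT3 minus ZT15 was 1.70, a difference of 4.53 ± 0.25 (SE, adjusted p = 0.0441, limma). CG34134 passed with 6 arrays (adjusted p = 0.0307) and, with the larger spread within each side, not with 8 (difference 2.83, adjusted p = 0.336).

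M7BP was at 9.82 at ZT23 and 8.84, 8.77 and 7.96 at ZT3, against 7.82 at ZT11 and 9.26, 9.96 and 10.09 at ZT15. Dawn was lower among the ZT3 and ZT15 arrays (-1.25) and higher in the single pair (2.00). The difference was 3.25 ± 0.19 (SE, adjusted p = 0.0441, limma). Its 2 other probe sets gave ZT3 minus ZT15 of -0.22 and 0.39, and ZT23 minus ZT11 of 0.03 and 1.12, in the same order. The brighter of these, with the 0.39, thus did not change sign. The third, probe set 1641651_at, has no gene symbol here and was at 12.29 at ZT11 and at 3.60 to 4.20 on the other 7 arrays. It passed the filter on low values only through the ZT11 array, so its call (adjusted p = 0.00417) describes that 1 array and supports nothing more.

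Leaving out 1 ZT3 or ZT15 array left neither CG34134 nor M7BP called in any of the 6 fits (adjusted p of 0.0762 to 0.226). Probe set 1641651_at was kept in 3 of them, and was lost when ZT3 replicate 3 or either of ZT15 replicates 1 and 3 was left out (adjusted p of 0.0563 to 0.0571). For the clock genes the same test gave 1.63 ± 0.19 (SE, adjusted p = 0.173) for per, 2.19 ± 0.19 (adjusted p = 0.0891) for tim, 0.89 ± 0.21 (adjusted p = 0.343) for vri and -1.30 ± 0.22 (adjusted p = 0.242) for cry, none of which passed.

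The ZT11 array also differed from the others in tissue markers. Of 9 eggshell and oocyte genes tested, 5 were highest at ZT11, and Vm26Aa, a vitelline membrane gene, was at 11.4 there. The summed eggshell level was 8.76 to 12.4 on the dawn arrays and 8.53 to 12.9 on the dusk arrays, with Cp15 high at ZT3 replicate 3. Of 17 muscle genes, 11 were highest at ZT11, and the summed muscle level was 15.5 to 15.7 at dawn and 15.5 to 16.2 at dusk. The median ZT23 minus ZT11 difference was -0.76 over the muscle list and 0.62 over 12 neuron markers. The part of these in the single-pair differences of CG34134, M7BP and 1641651_at was not tested.

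The dawn minus dusk difference was also compared between the 2 array sets. No probe set passed (0 of 12991, 0.0%; limma), and 680 (5.23%) had an unadjusted p under 0.05. The smallest p went to Jhe, the juvenile hormone esterase gene, at 3.27 in the first set and 0.66 in the second (adjusted p = 0.513), which did not pass. The second set also holds ZT23 and ZT11, but at ZT3 and ZT15 alone Jhe gave 0.77 in the second set (1 array each), against the same 3.27 in the first.

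**Figure D4:**
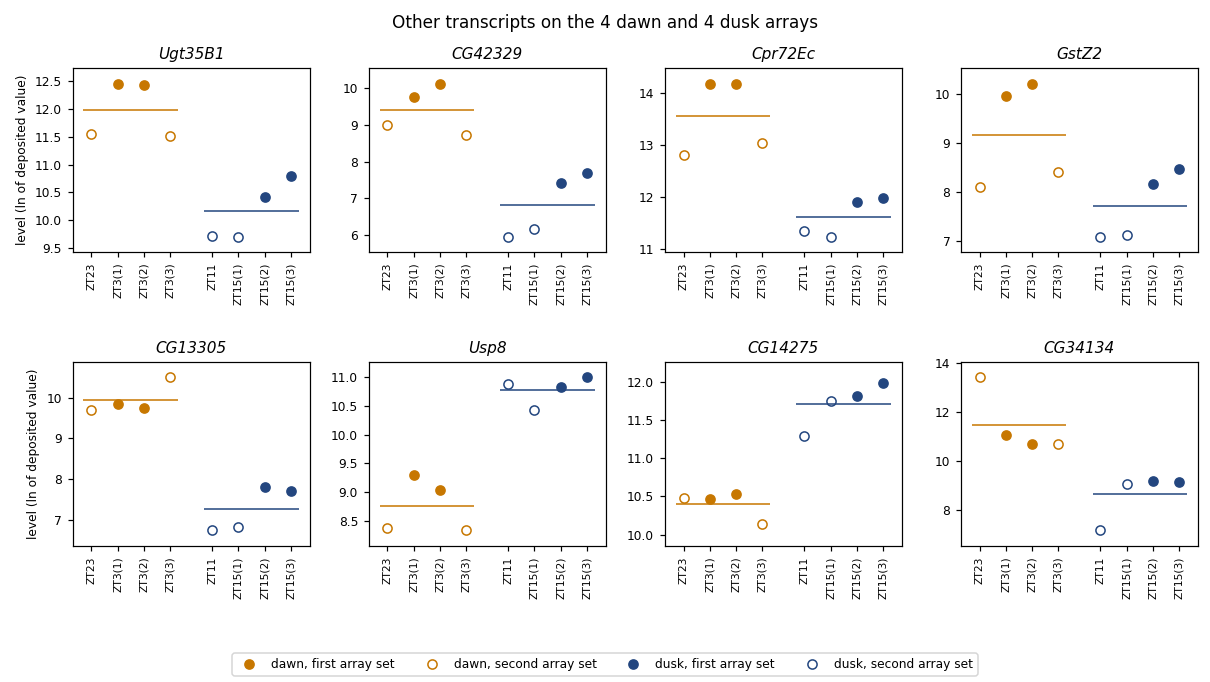
Level (natural log of the deposited value, y axis) of 8 genes outside the core clock on each dawn array (left, orange) and dusk array (right, blue), with filled points for the first array set and open points for the second; horizontal lines are the means of each side. In Ugt35B1, CG42329 and Cpr72Ec the first set is higher on both sides while the dawn arrays stay above the dusk arrays, and in CG34134 the ZT23 and ZT11 arrays are the extremes.

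Few genes passed in the wider gene lists, and only those already described did. Over all tested probe sets the share of calls was 0.131%. The clock protein kinases, phosphatases and degradation factors gave 1 call of 13 (Usp8, lower at dawn), with a list median of -0.02. The 12 neuropeptides and receptors of clock neurons gave none and a median of 0.13. Among 17 head cyclers from earlier fly studies, 1 passed as higher (Ugt35B1) and 2 as lower (Usp8 and CG14275) at dawn. Passing or not, 9 of the 17 had a difference above 0.

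The UDP-glycosyltransferases gave 1 call of 26 and a median of 0.15, beside a share of calls of 0.131% and a median of -0.01 over all tested probe sets. Ugt302C1 had a difference of 0.75 (adjusted p = 0.0764, limma) and Ugt35A1 of 0.65 (adjusted p = 0.0794), both short of the threshold. The glutathione transferases gave 1 call of 31 (GstZ2) and a median of 0.09, with 0.68 for GstD10 (adjusted p = 0.105). The takeout and juvenile hormone binding family gave no call among 11 genes, and Jhbp15 had the largest difference, 1.99 (adjusted p = 0.0787). Its list median was 0.04, which turned to -0.00073 with median centring. The 73 cytochrome P450 genes gave no call and a median of 0.00.

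The phototransduction list gave no call among 17 genes and a median of 0.11. Its scaffold gene inaD, which holds the signalling complex of photoreceptors together, had a difference of 0.97 (adjusted p = 0.175, limma) and the lipid phosphatase gene laza 0.70 (adjusted p = 0.155). No gene of the 17 in the potassium and sodium leak channel list passed, which includes Slob. Its median was 0.14. The channel subunit gene na had a difference of 0.51 and its partners unc79 and unc80 of 0.41 and 0.51, with adjusted p of 0.489 to 0.596.

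No member passed among 20 antimicrobial and immune-induced peptides (median -0.16), 31 cytoplasmic ribosomal protein genes (median -0.05), 72 oxidative phosphorylation genes (median 0.01, -0.03 with median centring) or 39 proteasome genes (median -0.09). Neuron markers gave no call of 12 and a median of 0.32. The 14 testis and 14 accessory gland markers gave no call either, with medians of -0.67 and -0.24. Their summed levels spanned 7.86 to 15.8 at dawn and 8.33 to 15.5 at dusk for the testis, and 9.05 to 16.4 at dawn and 8.72 to 17.0 at dusk for the accessory gland.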

How the data were processed

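The authors deposited 1 intensity per probe set and array for 10 Affymetrix Drosophila 2.0 arrays of Trizol-extracted, biotin-labelled RNA, per the labels. The submitters' processing notes name GCRMA, with no version or settings. The largest deposited intensity, 8528000, exceeds the 65536 levels of a scanner, with a natural log of 15.96 and a log2 of 23.02. Natural logs were therefore used and read as GCRMA log2 values. No read depth applies, and the number of arrays limits the precision.

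The 183 control probe sets were left out. In the platform annotation 13647 of the other 18769 carried a single gene symbol, 402 several and 4720 none here. Of the symbols, 13544 were updated by gene ID. Tests covered the 12991 probe sets (10165 genes) whose mean level over the 10 arrays reached 4, which corresponds to 54.6 as deposited. A probe set whose ID ends in s_at can match several transcripts.

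Differences were fitted in R 4.3.3 by limma 3.58.1, using lmFit and eBayes with side or time plus array set, Benjamini-Hochberg adjustment over all tested probe sets and a threshold of 0.05. In gene lists, a gene stands for whichever of its probe sets had the highest mean. The fits were tested on simulated data. Alternatives covered the array set term, the filter, scaling, pseudocounts of 1 (log2) and 16, the variance prior, left-out arrays and each time counted once.

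The arrays, array sets and gene lists were chosen with earlier results of these data known. Named genes were the 15 largest called differences per direction without overlap within each array set, the core clock list, up to 4 called genes per list, the genes called with 8 or 6 arrays but not both (up to 10 of those with 8), and those called between pairs or sets (the 5 smallest p per direction where none was). Genes below the threshold in other lists were named after their values were seen. Equal replicate numbers did not pair the arrays: the correlations of their deviations from the time means were -0.893, 0.804 and -0.903.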

Additional observations from a re-analysis of the deposited data

Results flagged for a closer look

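In 9 cases 1 array stood apart from the other 3 of its side, by a gap that was large against the range of the 4 (Dixon's criterion, which chance meets in about 1 of 20 groups). On the dawn side the ZT23 array did so in per (7.90), tim (12.0), Slob (11.2) and CG34134 (13.4), in each case above the 3 ZT3 arrays. ZT3 replicate 3 did so in CG14275, at 10.1. On the dusk side the ZT11 array stood apart in CG34134 (7.18), Cyp4d21 (11.1) and probe set 1641651_at (12.3), and ZT15 replicate 2 in CG16798 (3.87). ZT23 and ZT11 are single arrays of their times, so time and array cannot be told apart in these values. The named probe sets numbered 42, with 2 sides each, so some such cases come by chance at that rate. Slob, CG34134, Cyp4d21 and probe set 1641651_at were named because the single arrays changed their call or their difference. Their flags follow in part from that choice.

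The 3 differences between the single pair and the ZT3 and ZT15 arrays that passed the test of the difference itself (limma, Benjamini-Hochberg) were 4.53 for CG34134, 3.25 for M7BP and -8.76 for probe set 1641651_at. Probe set 1641651_at passed the filter on low values only through the ZT11 array.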

How the results depend on the processing

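The 17 dawn minus dusk calls became 1 without the array set term, 0 within the first and 0 within the second array set alone (1345 and 506 at an unadjusted p under 0.05), 39 with a trended, robust variance prior, and 4 to 14 when 1 array was left out. They stayed within 1.5 times with no filter (15), a mean of 6 or more (22), quantile normalization (12), median centring (14), log2(value + 1) (17), ln(value + 16) (18), all 10 arrays (17, the same by construction) and each time counted once (21). A similar count did not mean the same probe sets. With each time counted once, vri, per, Usp8, Ugt35B1, Cpr72Ec and the first CG42329 probe set kept their call. The other called probe sets, Clk and cwo among them, lost it, and both tim probe sets passed. The 20 ZT3 minus ZT15 calls became 4 without the array set term, 102 with the trended, robust prior, and 0 to 5 with 1 array left out. The replicate number as a replicate block, with no array set term, gave 0 calls (limma; 106 at an unadjusted p under 0.05), but the numbers did not pair the arrays, since ZT3 replicate 3 correlated best with ZT15 replicate 1 (0.947). The 3 calls between the single pair and the other arrays became 1 without the array set term, 7 with no filter, 18 with the trended, robust prior, 8 with ln(value + 16), and 0 to 1 with 1 array left out; leaving out ZT23 or ZT11 gave no value. The difference between array sets had 0 calls, and 0 to 1 with 1 array left out. The causes of these losses, the smaller number of arrays among them, were not tested. No called probe set changed sign in these fits. The sign turned for cyc with each time counted once (0.012) and with 1 array left out (-0.11 to 0.022, above 0 without ZT3 replicate 3 or ZT15 replicate 3), and for M7BP in the second array set alone (0.35) and with each time counted once (0.38). Median centring moved the median of all probe sets in the single-pair test by over 0.1, to 0.13, against -0.01 as deposited. Levels near 4 may lie at background, which these values cannot show.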

Other observations

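The ZT7 and ZT19 arrays, which lie in the second array set and entered no comparison, can be placed between the second-set means of the sides. At ZT7 all 17 called probe sets lay between dawn and dusk. At ZT19, 14 did, and CG16959, Cpr72Ec and CG14275 lay within or beyond the dusk arrays. Counted from dusk to dawn, the median position of the 12 probe sets higher at dawn was 53.6% of the way at ZT7 and 28.5% at ZT19. For the 5 lower at dawn it was 64.7% at ZT7 and 38.6% at ZT19. Both times have 1 array, so these positions carry no error. The 17 were chosen for the gap between their sides, which leaves room for other arrays to lie in it. The share of all tested probe sets lying between the sides was not counted, so these counts are no sign of a rhythm.

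CG34134, which had the widest single-pair difference among named genes with a symbol, was at 7.98 at ZT7 and 11.94 at ZT19. Cyp4g1, whose product makes cuticular hydrocarbons, was at 15.02 at ZT23 and 15.23 at ZT3 replicate 3, against 15.33 at ZT11 and 15.47 at ZT15 replicate 1. In the first array set it was at 6.79 and 6.22 at ZT3, against 4.84 and 4.31 at ZT15.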
